A study of Glycine max with 6 samples.

Results

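Transcripts of 3 soybean genes of protein quality control, BIP4, CDC48 and HSF-33, were measured in roots of the near isogenic lines (NILs) Clark and IsoClark. The members are all cDNA clones on the array whose row in the annotation carried 1 of these symbols and no other, and they numbered 8 of 18361 clones. BIP4 had 3 clones, CDC48 had 3 and HSF-33 had 2. Another row carried BIP4 together with a second symbol and was left out. By gene identifier the symbols stand for the same genes in the current RefSeq annotation of soybean, where BIP4 is also listed as soyBiPD, CDC48 as VCP and HSF-33 as GmHSF-33.

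Clark is the Fe efficient line. IsoClark is the Fe inefficient line, bred by repeated backcrossing of Fe inefficiency from T203 into Clark, so that both share most of their genome. Plants of both lines grew in Fe sufficient hydroponics to the V3 stage, with no Fe stress applied to either. The methods pooled root tissue of a few plants from 1 hydroponic unit into each RNA sample, so a replicate stands for such a pool. The 3 biological replicates were each hybridized on a dye-swap pair, with IsoClark in Cy3 on one array and in Cy5 on the other, giving 6 arrays. Every array carried both lines. In whole roots, fewer cells of a type and less RNA per cell cannot be told apart.

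Proteins that fail to fold are handled in plant cells by a few linked systems. BiP proteins are Hsp70 chaperones of the endoplasmic reticulum that bind unfolded chains there, and their transcripts are known to rise when unfolded protein accumulates. Heat shock factors (HSFs) are a family of transcription factors, some of which switch on chaperone genes of the cytosol and nucleus during heat and other stresses. CDC48, known as p97 or VCP in animals, is an ATPase that pulls ubiquitin-marked proteins out of membranes and complexes so that the proteasome can degrade them. Soybean carries close relatives of each gene, and a spotted cDNA can bind their transcripts too.

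No BIP4, CDC48 or HSF-33 clone passed the test for a difference between the NILs after correction over the whole array. Limma could test 5 of the member clones, and the adjusted p was under 0.05 for 0 of them and for 0 of all 13430 clones with a test (0%). At an unadjusted p of 0.05, 1 member passed, CDC48 clone Gm-r1070-5868, against 5.53% of all clones. The mean ratio reached 2-fold for 0 members and for 0.0298% of all clones. All 5 tested members had 95% limma intervals within 2-fold, as did 97.9% of all clones. For CDC48 clone Gm-r1070-5868 this does not exclude a 2-fold difference. Its log2 ratios of IsoClark over Clark were 0.61 and -1.86 on the arrays of replicate 3. The authors' ratios gave it a mean of -0.92 when turned to the labels and -1.05 as deposited. Of the 5 tested members, 2 had an IsoClark over Clark ratio of 1 sign in all 3 replicates, and 29.1% of all clones did. The exact sign-flip test of 3 replicates cannot give a p below 0.25. All ratios below are log2 of IsoClark over Clark, so values above 0 mean more signal in IsoClark.

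The members fell into clones that were read clearly and clones that were dim. The signal of a spot is given as its mean intensity divided by the median of its local background, and a channel counts as above background when the mean exceeds that median by 2 background SDs. BIP4 clone Gm-r1070-4773, CDC48 clones Gm-r1021-235 and Gm-r1070-5099 and HSF-33 clone Gm-r1070-9053 lay above background in both lines on all 6 arrays. The other 4 clones did so on some arrays only. Levels of different clones are not set against each other, because spotted cDNAs differ in length and amount. No member spot reached saturation.

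**Figure D1:**
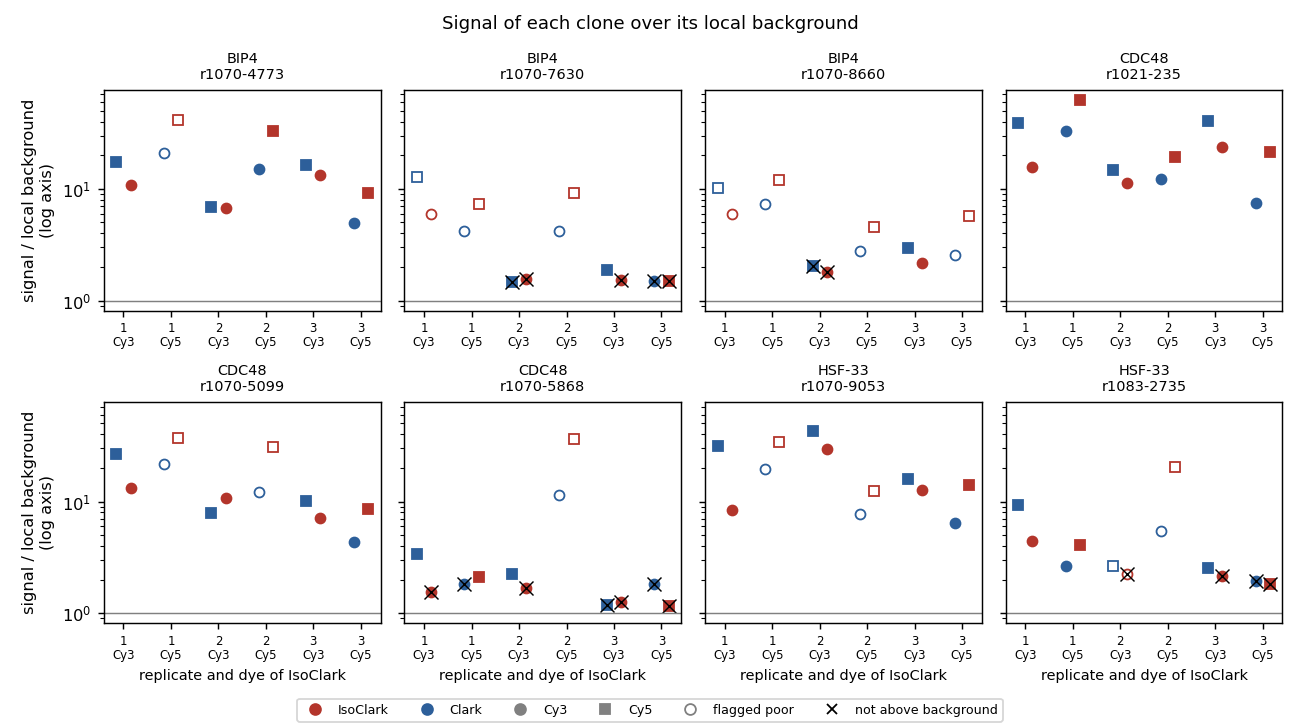
Signal over local background (log axis) of the 8 clones on each of the 6 arrays, 1 panel per clone. The horizontal axis gives the replicate and the dye that carried IsoClark, red is IsoClark, blue is Clark, circles are Cy3, squares are Cy5, open symbols are spots flagged as poor, and crosses mark channels not above background. BIP4 clone Gm-r1070-4773, CDC48 clones Gm-r1021-235 and Gm-r1070-5099 and HSF-33 clone Gm-r1070-9053 carry no cross, while most usable readings of CDC48 clone Gm-r1070-5868 do.

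Quality flags set by the image program removed many member readings. Of the 48 member spots, 15 were flagged as poor and were left out of the ratios, 6 of them in replicate 2 and 5 in replicate 1, both times on the array carrying IsoClark in Cy5. Only CDC48 clone Gm-r1021-235 was usable on all 6 arrays. Of the 15 replicate values of the tested members, 6 come from a single array, so that dye bias stays in them. All 6 are from arrays with IsoClark in Cy3, so any dye bias of a clone enters them in the same direction. They include replicates 1 and 2 of CDC48 clone Gm-r1070-5099 and of HSF-33 clone Gm-r1070-9053. Over all tested clones, 44.1% of replicate values come from a single array. For BIP4 clone Gm-r1070-7630 and CDC48 clone Gm-r1070-5868, every reading flagged as poor was brighter than every usable reading of the same clone. Across the array the poor spots had a median signal over background between 0.508 and 1.30 times that of the usable spots, depending on array and dye.

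BIP4, the endoplasmic reticulum chaperone, was read clearly on clone Gm-r1070-4773. In IsoClark its signal over background was 10.9, 6.77 and 13.3 on the arrays with IsoClark in Cy3 of replicates 1, 2 and 3, and 33.1 and 9.25 on the Cy5 arrays of replicates 2 and 3. In Clark it was 17.3, 6.89 and 16.4 on the first set of arrays and 15.1 and 4.90 on the second. The lines overlapped, and relative to its background the Cy5 channel was the brighter one on each array. After normalization the ratio was 0.30 in replicate 1 on its single usable array, 0.06 and 0.31 on the pair of replicate 2, and 0.05 and 0.01 on the pair of replicate 3, with the array carrying IsoClark in Cy3 first. All 5 usable arrays thus had a value above 0, some by very little. The mean was 0.17 ± 0.14 (SD, n = 3), with a 95% interval from -0.13 to 0.47 and a limma adjusted p of 0.801. The poor spot of replicate 1, with IsoClark in Cy5, read -0.03 when flags were ignored.

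The other BIP4 clones were dim where they were usable, and neither was tested because both replicate 1 spots of each were poor. Clone Gm-r1070-7630 had usable readings between 1.48 and 1.87 times background, and 1 of its 6 usable channel readings lay above background. Its usable ratios were -0.06 in replicate 2 and -0.16 and 0.10 on the pair of replicate 3. Clone Gm-r1070-8660 was usable on 2 arrays, with ratios of -0.41 in replicate 2 and -0.07 in replicate 3. The 3 BIP4 clones therefore did not share a sign on their usable arrays. All 3 usable spots of Gm-r1070-7630 carried the image program's mark for an empty spot, which did not remove them. The same mark was on 1 of the 2 usable spots of Gm-r1070-8660. The difference in sign thus rests on dim readings. With flags ignored, the mean ratios of the 3 clones were 0.10, 0.09 and 0.14 for Gm-r1070-4773, Gm-r1070-7630 and Gm-r1070-8660, with limma adjusted p of 0.847, 0.886 and 0.825. In that reading Gm-r1070-7630 had 0.83 in replicate 2 and Gm-r1070-8660 had 0.97 in replicate 3, each on a poor spot with IsoClark in Cy5. Their other 10 array values lay between -0.39 and 0.28.

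**Figure D2:**
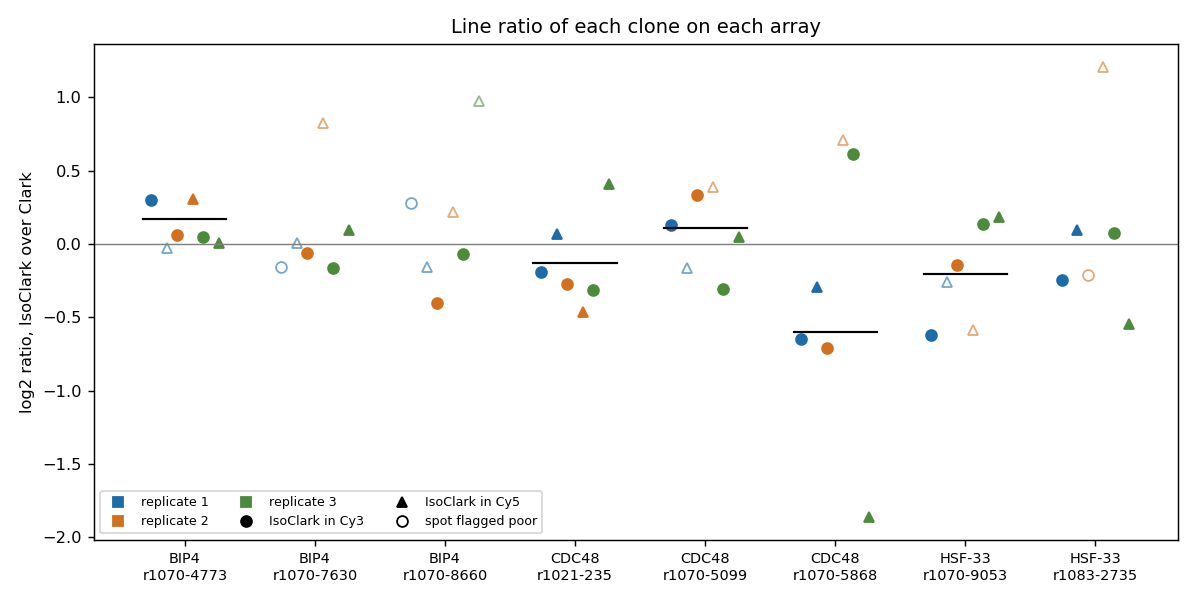
Log2 ratio of IsoClark over Clark for the 8 clones on each array. Colours are replicates, circles are arrays with IsoClark in Cy3 and triangles those with IsoClark in Cy5, open symbols are spots flagged as poor (value with flags ignored), and black bars are the means over 3 replicates of the 5 tested clones. The usable values of BIP4 clone Gm-r1070-4773 lie between 0.01 and 0.31, and those of CDC48 clone Gm-r1070-5868 between -1.86 and 0.61.

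HSF-33, a heat shock factor, was read clearly on clone Gm-r1070-9053. Its IsoClark signal was 8.44, 29.4 and 12.8 times background on the Cy3 arrays of replicates 1, 2 and 3 and 14.2 on the Cy5 array of replicate 3. The Clark signal on the same arrays was 31.5, 42.6, 15.8 and 6.43. The ratio was -0.62 in replicate 1, -0.15 in replicate 2, and 0.13 and 0.18 on the pair of replicate 3. Clark was higher in 2 replicates and IsoClark in the other, and the SD was larger than the mean, at -0.20 ± 0.39 (n = 3), with a 95% interval from -0.61 to 0.20 and a limma adjusted p of 0.820. This mean rests on replicate 1, whose only usable array carried IsoClark in Cy3. Without replicate 1 it was 0.0047, and with print-tip loess in place of global loess it was 0.077.

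The second HSF-33 clone, Gm-r1083-2735, comes from another clone set and was not tested, since both replicate 2 spots were poor. Its usable readings lay between 1.84 and 9.39 times background, and 5 of 8 lay above background. Of its 4 usable spots, 2 carried the image program's mark for an empty spot. The ratio was -0.24 and 0.09 on the pair of replicate 1 and 0.07 and -0.54 on the pair of replicate 3, so that the arrays of each pair had opposite signs. The means of these pairs were -0.08 and -0.24, or -0.16 ± 0.11 over the 2 replicates. With flags ignored, the array of replicate 2 with IsoClark in Cy5 gave 1.21 and its partner -0.21, and the mean over 3 replicates was 0.05 ± 0.39 (limma adjusted p = 0.950). On usable arrays both HSF-33 clones thus had a mean below 0, and for Gm-r1083-2735 the sign turned when flags were ignored, which adds the poor spot at 1.21.

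CDC48, the ATPase that feeds ubiquitin-marked proteins to the proteasome, gave 3 tested clones with means on both sides of 0. Clone Gm-r1021-235 was the best measured member, above background in both lines and usable on all 6 arrays. Its signal over background in IsoClark was 15.7, 62.9, 11.4, 19.5, 23.9 and 21.6, in the order of replicates 1 to 3 with the array carrying IsoClark in Cy3 first. In Clark it was 38.9, 32.7, 14.6, 12.3, 40.5 and 7.44. The ratios in the same order were -0.19, 0.07, -0.27, -0.46, -0.32 and 0.41. Clark was higher on 4 arrays and IsoClark on 2, and both of those carried IsoClark in Cy5.

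The mean of clone Gm-r1021-235 was -0.13 ± 0.22 (SD, n = 3), with a 95% interval from -0.45 to 0.20 and a limma adjusted p of 0.857. Replicate 2 had -0.37 while replicates 1 and 3 had -0.06 and 0.05, and without replicate 2 the mean was -0.0067. As the sole member usable on all 6 arrays, it was also the sole one in the dye test. Cy5 exceeded Cy3 by 0.13, with a 95% interval from -0.13 to 0.39 and a limma adjusted p of 0.700. In the dye test 0 of 2618 clones (0%) passed after adjustment and 12.3% had an unadjusted p under 0.05. This clone had neither. With median centring in place of loess 37 of these clones passed, and this clone had 0.16 with a limma adjusted p of 0.683.

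Clone Gm-r1070-5099 of CDC48 had usable readings of 4.31 to 26.7 times background, all above background. The ratio was 0.13 in replicate 1 and 0.33 in replicate 2, each on a single array with IsoClark in Cy3. It was -0.31 and 0.05 on the pair of replicate 3. IsoClark was higher on 3 of the 4 usable arrays, and the mean was 0.11 ± 0.23 (n = 3), with a 95% interval from -0.22 to 0.44 and a limma adjusted p of 0.877. Without replicate 2 it was -0.00069. The 2 clearly read CDC48 clones thus had means of opposite sign, with both intervals across 0.

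Clone Gm-r1070-5868 of CDC48 had the lowest ratio among the members, at -0.60 ± 0.12 (n = 3), or 1.52-fold more signal in Clark. The 95% interval ran from -0.90 to -0.30, the limma p before correction was 0.00205, and the adjusted p was 0.796. The exact sign-flip p was 0.25, the lowest that 3 replicates allow. The replicate values of -0.47, -0.71 and -0.63 lay close together, but the arrays behind them did not. Replicate 1 had -0.65 and -0.29, replicate 2 had -0.71 on its only usable array, and replicate 3 had 0.61 and -1.86.

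The gap of 2.47 between the arrays of replicate 3 compares with a median gap of 0.32 over the swap pairs of all tested clones and a 95th percentile of 1.11. The usable readings of this clone were between 1.17 and 3.38 times background. All 5 usable spots carried the image program's mark for an empty spot, which did not remove them. Of the 10 usable channel readings 3 lay above background, all in Cy5, and none in replicate 3. The replicate 2 spot with IsoClark in Cy5, flagged as poor, read 36.6 times background in IsoClark and 11.5 in Clark and had a ratio of 0.71. With flags ignored the mean was -0.37 ± 0.34 (limma adjusted p = 0.766), and with no background correction it was -0.33. When only spots above background in both channels were used, this clone had no value. Whether the dim signal gave rise to its ratio was not tested.

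The CDC48 clones were also compared with each other within replicates, since they share a symbol. Clone Gm-r1070-5868 was lower than Gm-r1021-235 by -0.41, -0.34 and -0.67 in replicates 1 to 3, a mean difference of -0.48 ± 0.17. It was lower than Gm-r1070-5099 by -0.60, -1.05 and -0.50, a mean of -0.71 ± 0.29. Both differences were below 0 in all 3 replicate means and had an exact sign-flip p of 0.25. Within replicate 3 they had opposite signs on the arrays of the pair, with 0.93 and -2.27 against Gm-r1021-235 and 0.92 and -1.91 against Gm-r1070-5099, and Gm-r1070-5868 was not above background in either channel there. The clearly read clones Gm-r1070-5099 and Gm-r1021-235 differed by 0.24 ± 0.44 (exact sign-flip p = 0.5), and the difference was 0.19, 0.70 and -0.18 in the 3 replicates and 0.0061 on average without replicate 2. Averaging the 3 clones gave -0.13, -0.25 and -0.24, or -0.21 ± 0.06, a small SD over clones that ranged from -0.60 to 0.11.

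**Figure D3:**
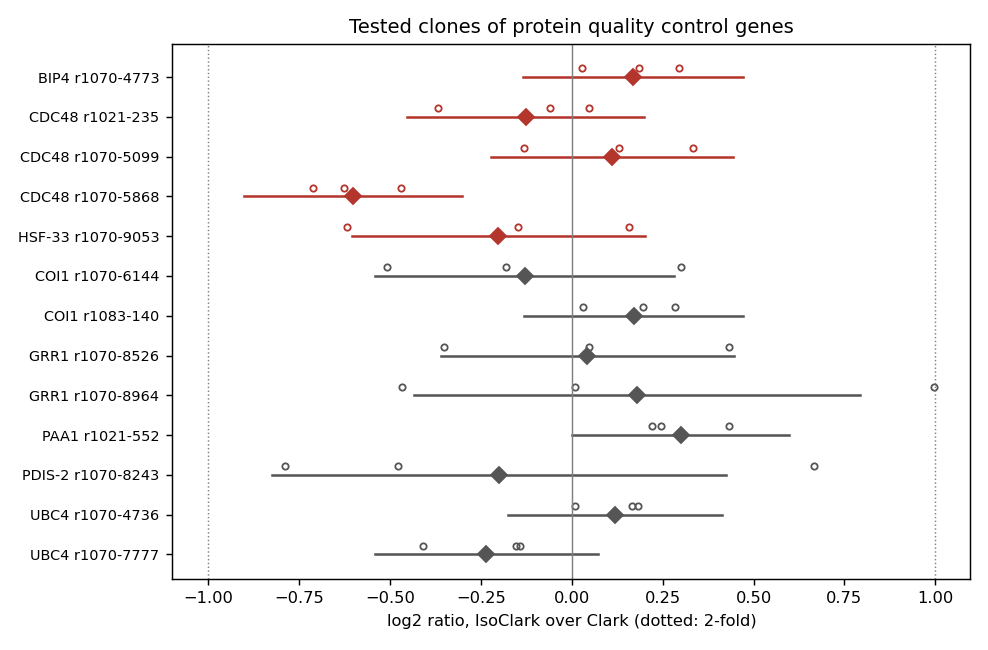
Mean log2 ratio of IsoClark over Clark (diamonds) with 95% limma intervals (bars) and the 3 replicate values (open circles) for the tested clones of BIP4, CDC48 and HSF-33 (red) and of the other protein quality control genes (grey). Dotted lines mark 2-fold. Every bar stays within 2-fold, and the bars of CDC48 clone Gm-r1070-5868 and PAA1 clone Gm-r1021-552 do not cross 0, although neither clone passed after adjustment.

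Other named genes of the same systems were few. A search of symbols and synonyms gave 3 genes for folding and 3 for degradation, members included: PDIS-2, UBC4 and GRR1 were the additional ones. COI1, an F-box protein of jasmonate perception, and PAA1, a subunit of the proteasome core, were added after their values had been seen. These 5 genes had 9 clones, and of the 8 with a limma test the adjusted p was under 0.05 for 0. An unadjusted limma p under 0.05 was reached by 1 of the 8, against 5.53% of all clones. It was a clone of PAA1, a gene added with its values known, and no clone of PDIS-2, UBC4 or GRR1 had such a p. Of the 8, 5 had a mean above 0 and 3 below, the added genes included. The median over the 13 tested clones of all these genes was 0.04, against 0.003 for all clones tested. COI1 and PAA1 are among the 13, so this median depends on genes added with their values known. No difference from the whole array is read from it.

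PAA1 clone Gm-r1021-552 was usable on all 6 arrays and above 0 on each of them, with 0.20, 0.29, 0.72, 0.15, 0.27 and 0.17 in the order used above. Its mean was 0.30 ± 0.12 (n = 3), with a 95% interval from 0.001 to 0.60, an adjusted limma p of 0.796 and an exact sign-flip p of 0.25. The second PAA1 clone, Gm-r1070-6345, was usable on 1 array and had 0.25 there. The UBC4 clones, for a ubiquitin-conjugating enzyme, pointed apart, with 0.12 ± 0.10 for Gm-r1070-4736 and -0.24 ± 0.15 for Gm-r1070-7777, each with 1 sign in all 3 replicates. COI1 did likewise, with 0.17 ± 0.13 for Gm-r1083-140 and -0.13 ± 0.41 for Gm-r1070-6144. GRR1, an F-box protein of ubiquitin ligases, had 0.04 ± 0.39 for Gm-r1070-8526 and 0.18 ± 0.75 for Gm-r1070-8964. PDIS-2, a protein disulfide isomerase that helps form disulfide bonds during folding, had -0.20 ± 0.77 with -0.79, 0.67 and -0.48 in the 3 replicates. In limma the adjusted p of these UBC4, COI1, GRR1 and PDIS-2 clones lay between 0.796 and 0.971.

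**Figure D4:**
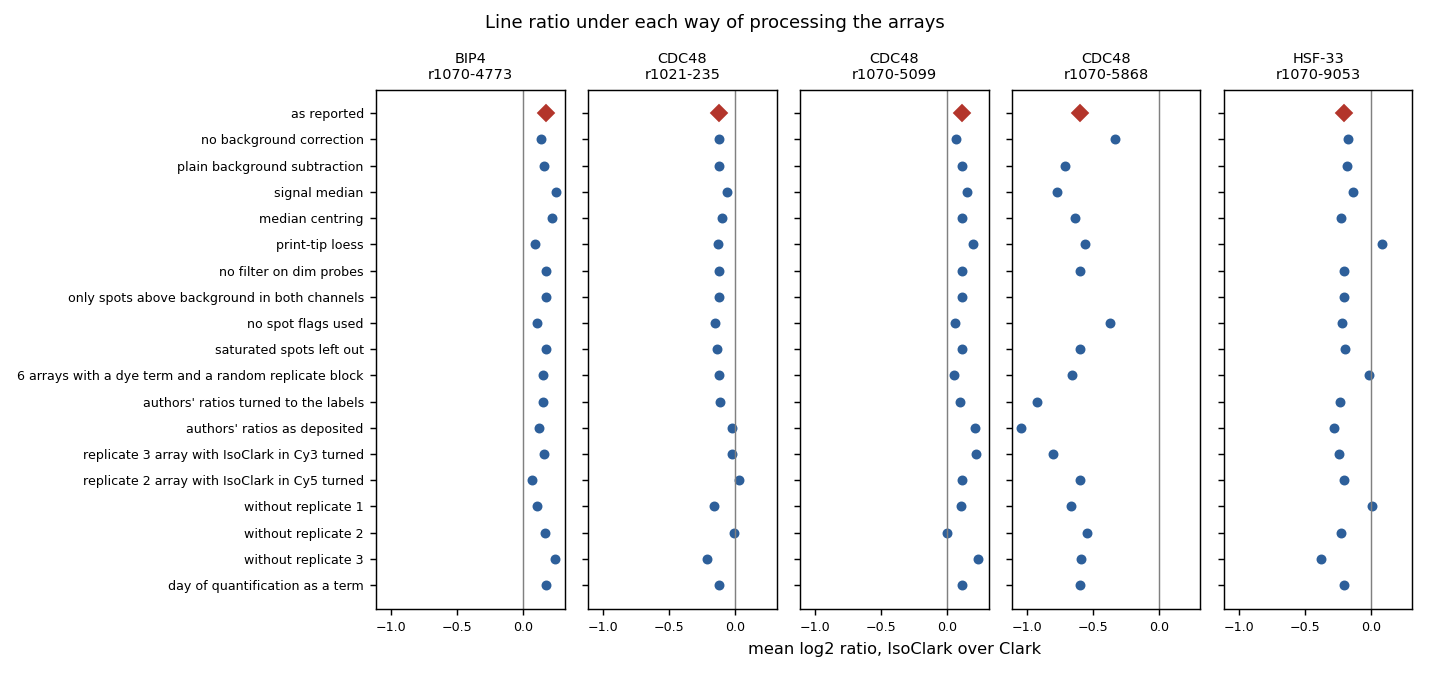
Mean log2 ratio of IsoClark over Clark of the 5 tested members as reported (red diamond) and under each other way of processing the arrays (blue points), 1 panel per clone. BIP4 clone Gm-r1070-4773 stays between 0.07 and 0.25 and CDC48 clone Gm-r1070-5868 between -1.05 and -0.33, while the points of the other clones reach or cross 0.

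The annotated genes whose ratio moved most like that of BIP4 over the 5 usable arrays were GAPC1, a cytosolic glyceraldehyde-3-phosphate dehydrogenase (Pearson's r = 0.99), SRC1 (0.96) and LOC100101914 (0.91), out of 227 genes compared. For CDC48, averaged over its 3 tested clones, they were LOC778114 (0.98, over 5 arrays), LOC547668 (0.88, over 5 arrays) and HDL56, a homeodomain leucine zipper gene (0.84, over 6 arrays), out of 339. That average follows the dim clone Gm-r1070-5868, whose usable ratios had a range of 2.47 against 0.87 and 0.64 for the other clones. In replicate 3, with IsoClark in Cy5, the average was -0.47, and it was 0.23 without that clone. Averaged without it, a choice made after seeing the data, CDC48 had r of -0.77 with LOC778114, 0.26 with LOC547668 and -0.13 with HDL56, and the highest r were those of SOYAP2 (0.97, over 6 arrays), LOC547865 (0.92, over 5) and WRKY13 (0.92, over 6). These correlations are over arrays that share RNA within pairs, and the 99th percentile of r over the genes compared was 0.91 for BIP4 and 0.83 for CDC48 averaged over 3 clones. The named genes were picked as the highest of these same r values, so lying near or above that percentile follows from the choice. The BIP4 ratio had a range of only 0.30 over its 5 usable arrays. For comparison, the median gap between the arrays of a swap pair was 0.32 over all tested clones. HSF-33 had too few usable arrays on its tested clone to be compared.

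The arrays differed in quality. The median spot exceeded its background 3.31- to 8.91-fold in the Cy3 channel and 5.12- to 18.3-fold in the Cy5 channel, and 18.9% to 44.2% of the cDNA spots per array were flagged as poor. The median SD between replicates was 0.22 over all tested clones and also 0.22 over the tested members. Markers of root and other tissues were looked up as well. All 10 root clones, of IFS1, IFS2, EXP1 and PIP2-6, lay above background on all 6 arrays, while PRP1, PRP2 and NRT2 had no named clone. Of the markers of other tissues, 10 of 11 photosynthetic clones and 8 of 12 seed clones also lay above background on all 6 arrays, as did 0 of 1 nodule clones. These counts take either channel, poor spots included, and 85.1% to 98.7% of cDNA spots per array passed in that way. They therefore cannot tell root from other tissue. The tested root markers had ratios from -0.33 to 0.04 with a median of -0.25, 1 of 8 with an unadjusted p under 0.05. The photosynthetic markers had -0.20 to 0.23 with a median of 0.05 (0 of 9), the seed and cotyledon markers -0.46 to 0.80 with a median of 0.09 (1 of 8), and the nodule marker N-36A had 0.06. Of all these, 0 of the tested marker clones passed after adjustment in limma. Their part in the member ratios was not tested.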

How the data were processed

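Cy3 and Cy5 spot intensity values, with background and a quality flag per spot, were deposited by the authors on a linear scale without normalization, per the file headers from ImaGene 6.1.0. The authors also deposited log2 ratios, 1 column per array, whose background correction and normalization are not given in the sources used here. They were used only as an alternative. In replicate 3, the column for IsoClark in Cy3 ran opposite to its label. For the replicate 2 array with IsoClark in Cy5, the protocol text names the dyes the other way round from the label fields, which were followed.

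Gene symbols belong to rows of the authors' table. Rows were tied to clones by a fixed shift per clone set found from the values. In a window of 97 clones around each member, the match was best at the row used (r of 0.51 to 0.73). It was at most 0.35 at the other nearby offsets tried. The row of a member was not checked apart from its window. Of 1091 clones with 1 symbol, standing for 526 genes, 522 genes matched RefSeq by identifier. Those tables hold no gene descriptions, so lists were matched on symbols and synonyms.

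Background was corrected with normexp (offset 50) and arrays normalized by global loess in limma 3.58.1 (R 4.3.3), leaving out poor and blank spots. Ratios were turned to IsoClark over Clark, each swap pair was averaged, and lmFit and eBayes tested the 3 replicate means for a departure from 0, with Benjamini-Hochberg adjustment over all clones measured in 3 replicates and above background on at least 3 arrays. The script was tested on simulated data. Within replicates, arrays correlated at 0.003 after normalization, so arrays of the same pools agreed no more than arrays of different pools. All member clones are named, as are all genes of the lists, and the 3 genes of highest correlation for each member with at least 5 usable arrays. Members, lists and tests were chosen with earlier results of these data known.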

Additional observations from a re-analysis of the deposited data

Results flagged for a closer look

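Of 25 sets of 4 to 6 usable arrays (ratios of the named clones, and log2 signal over background of the members in each line), 1 held an array set apart from the rest by Dixon's criterion, which chance meets in about 1 of 20. For PAA1 clone Gm-r1021-552, the replicate 2 array with IsoClark in Cy3 read 0.72, and the other 5 arrays lay between 0.15 and 0.29. Without replicate 2 the mean was 0.23 in place of 0.30.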

How the results depend on the processing

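Under the 18 alternatives for the line test the limma adjusted p was under 0.05 for 0 clones, members included, and that of the member ratios ranged from 0.354 to 1.00. BIP4 clone Gm-r1070-4773 and CDC48 clone Gm-r1070-5868 kept their direction throughout (0.07 to 0.25 and -1.05 to -0.33), except that the latter had no value with only spots above background in both channels. CDC48 clone Gm-r1021-235 turned to 0.027 when the replicate 2 array carrying IsoClark in Cy5 was turned. Leaving out 1 replicate gave -0.00069 to 0.23 for CDC48 clone Gm-r1070-5099, 0.11 to 0.24 for BIP4, -0.21 to -0.0067 for Gm-r1021-235, -0.67 to -0.55 for Gm-r1070-5868 and -0.38 to 0.0047 for HSF-33 clone Gm-r1070-9053, which had 0.077 with print-tip loess. A fit of all 6 arrays with a dye term and a replicate block gave 0.15, -0.13, 0.05, -0.66 and -0.02 for Gm-r1070-4773, Gm-r1021-235, Gm-r1070-5099, Gm-r1070-5868 and Gm-r1070-9053. The difference of CDC48 clones Gm-r1070-5099 and Gm-r1021-235 kept its sign under 18 alternatives (0.0061 without replicate 2 to 0.45 without replicate 3), and the differences of Gm-r1070-5868 from them under the 17 that gave it a value. The dye ratio of Gm-r1021-235 kept its sign under its 2 alternatives (0.13 and 0.16), while the number of all clones passing the dye test went from 0 to 37 with median centring and was 0 with flags ignored. Among the other genes, the signal median turned PDIS-2 (0.12), GRR1 clone Gm-r1070-8964 (-0.15) and UBC4 clone Gm-r1070-4736 (-0.041). Print-tip loess turned GRR1 clone Gm-r1070-8526 (-0.030) and UBC4 clone Gm-r1070-4736 (-0.012). Ignoring flags turned the GRR1 clones (-0.050 and -0.035). The authors' ratios turned to the labels gave -0.059 and -0.57 for the GRR1 clones, and as deposited 0.16 for PDIS-2, -0.18 for Gm-r1070-8526 and -0.0093 for UBC4. Turning the replicate 3 array that carried IsoClark in Cy3 gave 0.096 for PDIS-2 and -0.25 for Gm-r1070-8526, and turning the replicate 2 array gave -0.077 for Gm-r1070-8964. Leaving out 1 replicate turned PDIS-2 (-0.63 to 0.094), Gm-r1070-8526 (-0.15 to 0.24), Gm-r1070-8964 (-0.23 to 0.50) and COI1 clone Gm-r1070-6144 (-0.34 to 0.058). The cause of these changes was not tested. The precision is limited by the number of replicates, which is 3.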
